A study of Mus musculus with 4 samples.

Results

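The nuclear genes for the subunits of the mitochondrial respiratory chain and of ATP synthase were followed in cerebral cells from mice with a floxed Mgp gene, with and without tamoxifen treatment. Members were taken by gene symbol (Nduf, Sdha to Sdhd, Uqcr, Cox and Atp5 genes), which gave 84 of the 24873 genes listed. Of these, 36 encode subunits of complex I, 4 of complex II, 8 of complex III, 18 of complex IV and 18 of complex V. Ndufa4 was placed in complex IV, where its protein resides despite its name.

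RNA-Seq was performed on 2 control and 2 tamoxifen libraries, each made from CD31+CD45- cerebral cells pooled from 3 mice. All mice carried the genotype given in the labels as Cdh5cre;Mgpflox/flox, with an inducible Cre under the promoter of VE-cadherin, and the labels name the cells by tdTomato rather than by CD31. From an age of 10 weeks, the tamoxifen group was injected on 5 days with 75 mg/kg, the controls were not injected with the drug, and cells were taken on day 9. Effects of tamoxifen itself and of recombination at Mgp therefore cannot be told apart, and p-values measure the spread between 2 libraries of pooled mice per group.

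Electrons from NADH enter the chain at complex I and those from succinate at complex II, pass through complex III and cytochrome c to complex IV, and reduce oxygen there. The proton gradient that complexes I, III and IV build drives ATP synthase, complex V. A few core subunits of complexes I, III, IV and V are encoded by mitochondrial DNA, whereas all other subunits come from the nucleus, so both genomes have to supply parts for the same complex. Brain endothelial cells are known for both active glycolysis and a good supply of mitochondria.

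Mgp, the targeted gene, stood at 1094 and 1352 normalized counts without tamoxifen and at 945 and 909 with it (log2 fold change -0.39, standard error 0.18, adjusted p = 0.0986 by limma). The exons removed by the recombinase were not taken into account in this count. The libraries held 35387438 to 49799321 reads on genes, and 3 reads, the limit that a count of 0 allows, equal 2.16 to 4.11 normalized counts. The makeup of the libraries differed widely between the groups. The 8 endothelial markers all fell, from a summed 615681 and 619474 normalized counts in the controls to 112863 and 59644. Pluripotent cell markers (7 of 7 higher) went from sums of 69.9 and 95.1 to 47756 and 37401, neutrophil markers (7 of 7 higher) from 297 and 232 to 108979 and 81197, and erythroblast markers (6 of 6 higher) from 18523 and 37749 to 170898 and 110539. Neuron markers (4 of 6 higher) were at 922 and 1169, then at 5447 and 7755. The part of these differences in the results below was not tested, and in such bulk samples fewer cells of a type and less RNA per cell cannot be told apart.

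Most subunit genes moved little. Of the 82 members whose mean reached 10 normalized counts, 76 had a log2 fold change between -1 and 1, against 48.5% of the 20485 genes tested. At an adjusted p under 0.05 and a fold over 2, 5 members were higher under tamoxifen, namely Cox6a2, Cox6b2 and Cox7a1 of complex IV and Atp5if1 and Atp5mc1 of complex V, and 28.6% of all genes tested were called higher by this rule. Ndufs5 of complex I was the only member called lower, and 16% of all genes tested were. By the adjusted p alone 24 members were higher, with 33.4% of all genes tested, and 4 were lower, with 25.5% of all genes tested. Both tamoxifen libraries lay above both controls for 36 members and below them for 13, whereas 43.1% and 39.2% of all genes tested did so. By both call rules the share of members called was below that of all genes in each direction. The median log2 fold change was 0.19 over the members and 0.05 over all genes tested. The counts depended on which library was left out, which also leaves fewer degrees of freedom. The median over the members was 0.01 without control 1, 0.40 without control 2, 0.11 without tamoxifen 1 and 0.24 without tamoxifen 2.

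The median change differed from complex to complex. The members of complex I had a median log2 fold change of -0.03, those of complex II 0.16, of complex III 0.18, of complex IV 0.64 and of complex V 0.54. By the adjusted p alone, 3 complex I genes rose and 2 fell of 36, 1 of 4 rose in complex II, 1 of 8 in complex III, 9 of 16 tested in complex IV, and 10 rose and 2 fell of 18 in complex V. No member of complexes II, III or IV fell past the threshold. By this rule 33.4% of all genes tested rose and 25.5% fell, which also applies to later counts of genes that rose or fell.

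**Figure D1:**
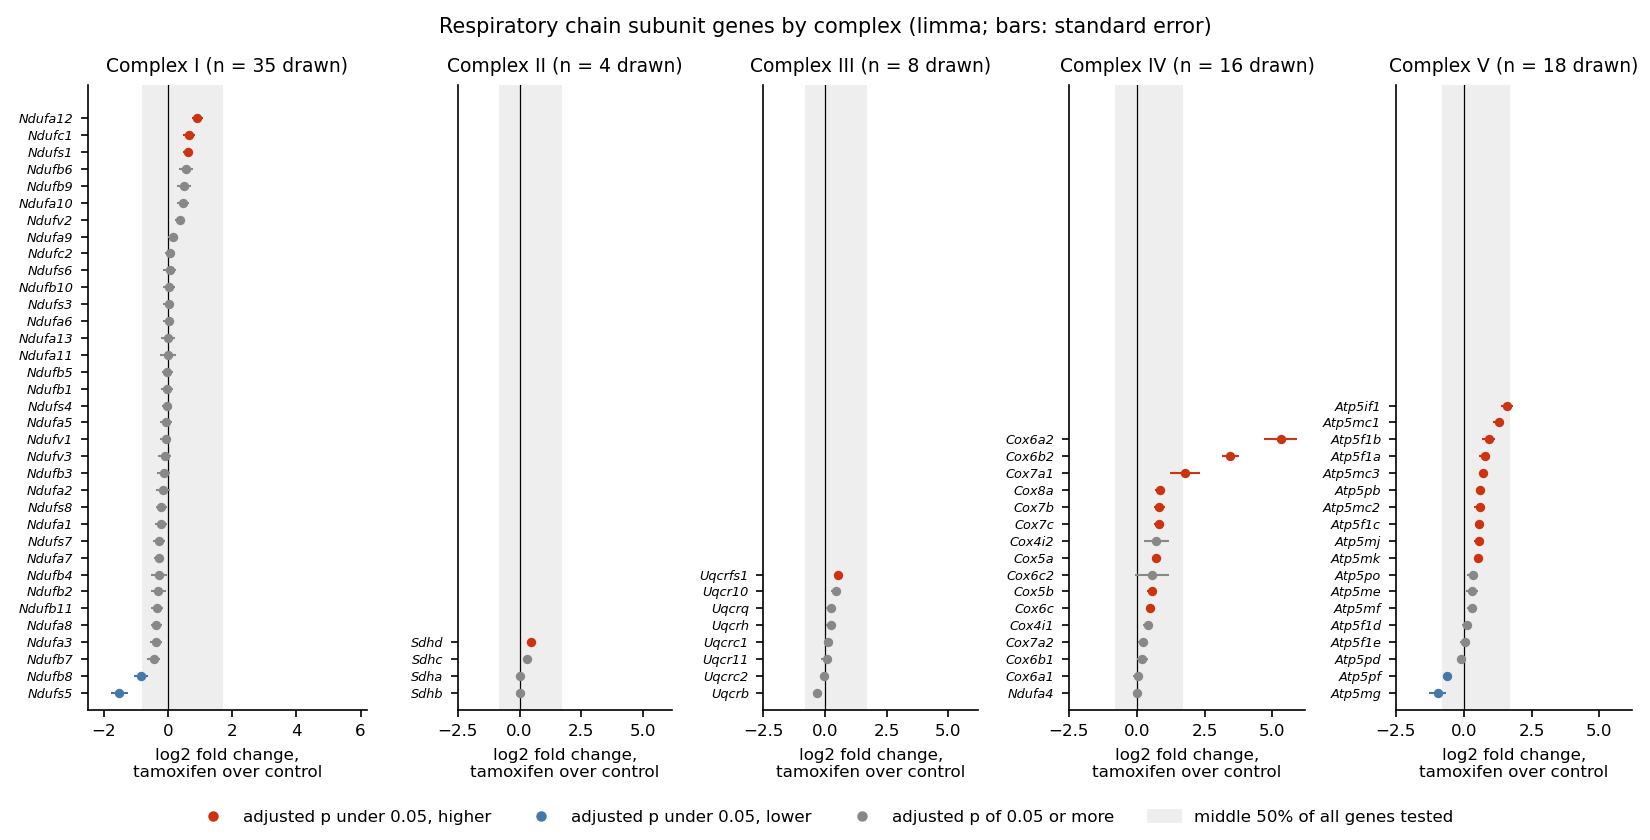
Log2 fold change of the tested members, with 1 of complex I not drawn (tamoxifen over control, x axis) with its standard error, in a panel per complex, sorted by value. Grey bands span the middle 50% of all genes tested (-0.77 to 1.68), and the panels of complexes IV and V hold 19 of the 24 genes past the threshold upwards. The value of Cox6a2, with no reads in the controls, depends on the pseudocount.

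The order of the complexes was also read within each library, which does not depend on how the libraries were scaled to each other. For the 77 members left after the 7 restricted isoforms of complex IV were set aside, the mean log2(normalized count + 1) was taken per complex. Complex IV exceeded complex I by 0.76 and 0.79 in the control libraries and by 1.31 and 1.27 in the tamoxifen libraries. Complex V exceeded complex I by 0.56 and 0.51 in the controls and by 0.98 and 1.01 under tamoxifen. For both pairs the gap between the groups was larger than the gap between libraries of a group, and the groups did not overlap. The differences of complex II from complex I (1.28 and 1.16, then 1.47 and 1.45) and of complex III from complex I (0.74 and 0.75, then 0.95 and 0.94) widened less, again with no overlap. Complex V minus complex IV overlapped between the groups, with -0.20 and -0.28 in the controls and -0.32 and -0.26 under tamoxifen. An exact permutation test (two-sided) of 2 values against 2 has a smallest possible p of 0.333, so none of these gaps could reach significance alone.

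**Figure D2:**
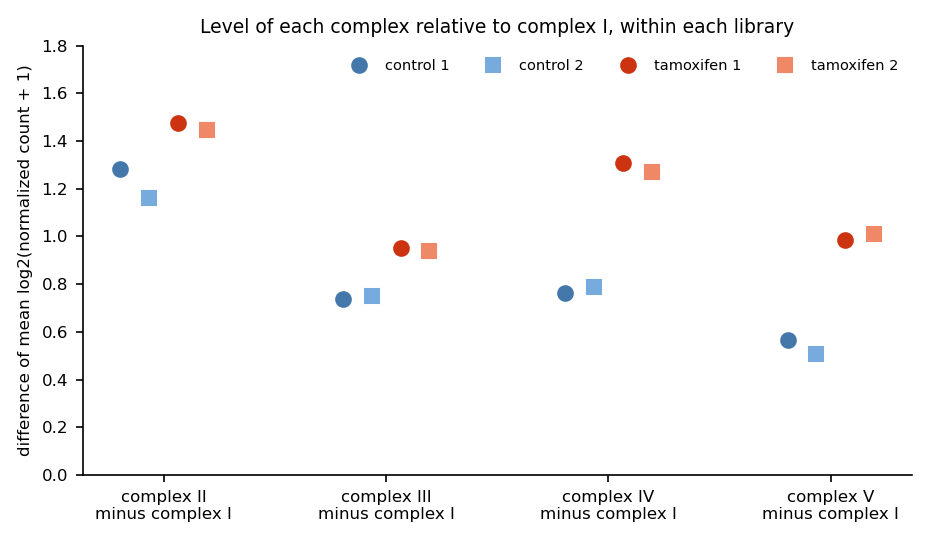
Mean log2(normalized count + 1) of the genes of complexes II to V minus that of complex I, with 1 point per library. The tamoxifen points lie above the control points in all 4 columns, and the gap is widest for complex IV (0.78 against 1.29 on average) and complex V (0.54 against 1.00).

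As a share of all normalized counts in a library, the 84 genes together took 0.391% and 0.476% in the controls and 0.761% and 0.750% under tamoxifen. Complex V alone took 0.140% and 0.165%, then 0.328% and 0.321%. The summed normalized counts behind these shares were 200458 and 244533 in the controls and 292027 and 268623 under tamoxifen. The shares differ more than the sums because the totals of the normalized counts differed between the groups, with a tamoxifen to control ratio of 0.722.

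The 2 control libraries differed from each other for this set of genes. Control 2 lay above control 1 in 77 of the 82 tested members and in 54.5% of all genes tested. The median log2 difference was 0.32 over the members and 0.05 over all genes tested. Tamoxifen 2 lay above tamoxifen 1 in 14 of the 82 members and in 42.0% of all genes tested, with medians of -0.11 and -0.08. The median of the members between the groups, 0.19, is therefore smaller than the median gap between the control libraries. Without control 1 it was 0.01, and without control 2 it was 0.40.

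Complex I oxidises NADH and passes the electrons over a chain of iron-sulphur clusters to ubiquinone. Its 7 core subunits of nuclear origin carry the flavin and those clusters, and 1 of them rose. Ndufs1, which holds several clusters in the NADH module, had 2350 and 2744 normalized counts in the controls and 3998 and 3753 under tamoxifen, a log2 fold change of 0.61 (standard error 0.16, adjusted p = 0.0115 by limma). Exons of Eef1b2 and Ino80dos together cover 17.4% of its transcript on the opposite strand. On the log2 scale Eef1b2 rose by 1.42, and Ino80dos had -0.48 and did not pass. Log2 fold changes were -0.28 for Ndufs7, -0.22 for Ndufs8, -0.08 for Ndufv1, 0.02 for Ndufs3 and 0.37 for Ndufv2, and none of these passed the threshold. Ndufv1, the flavin-binding subunit, had 3779 and 4771 normalized counts in the controls and 4231 and 3823 under tamoxifen, so that the groups overlapped.

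The 29 accessory subunits of complex I surround this core. Ndufs5, an accessory subunit on the intermembrane space side (chromosome 4 from 123606481 to 123612002 of GRCm39), showed the strongest fall of all members, with 505 and 617 normalized counts in the controls and 179 and 211 under tamoxifen (log2 fold change -1.52, standard error 0.26, adjusted p = 0.00166 by limma). A copy elsewhere in the genome matches 91.0% of the Ndufs5 transcript at 99.6% identity, and how reads with several matches were counted is not given. Ndufb8, an accessory subunit of the membrane arm that is widely used as a protein marker of assembled complex I, fell from 603 and 628 normalized counts to 363 and 321 (log2 fold change -0.85, standard error 0.22, adjusted p = 0.0116 by limma). Exons of an annotated gene on the same strand, Gm20538, cover 68.6% of the Ndufb8 transcript. Ndufb7 was at 1941 and 2607 normalized counts in the controls and 1875 and 1455 under tamoxifen and did not pass (adjusted p = 0.0976).

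Ndufa12 was highest in complex I by fold. It had 622 and 723 normalized counts in the controls and 1207 and 1329 under tamoxifen (log2 fold change 0.92, standard error 0.18, adjusted p = 0.00352 by limma). Ndufc1, a small membrane-arm subunit, went from 538 and 591 to 875 and 883 (log2 fold change 0.64, adjusted p = 0.0199 by limma). For both genes both tamoxifen libraries lay above both controls, but with quantile normalization Ndufc1 had a log2 fold change of 0.19 and no longer passed. Ndufab1, the acyl carrier protein that also sits in complex I but falls outside the symbol rule, was at 986 and 897 in the controls and 775 and 810 under tamoxifen and did not pass (adjusted p = 0.26). The other 31 members of complex I had log2 fold changes within 0.55 of 0 on either side, and none passed.

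Complex II, succinate dehydrogenase, is the only complex built wholly from nuclear genes. Sdha, the flavoprotein that oxidises succinate, had 9114 and 9730 normalized counts in the controls and 9692 and 9245 under tamoxifen (log2 fold change 0.01, standard error 0.16). Sdhb, the iron-sulphur subunit, was at 2879 and 3577, then 3353 and 3096 (log2 fold change 0.01, standard error 0.17). The values of these 2 catalytic subunits overlapped between the groups. The membrane anchors were higher in both tamoxifen libraries. Sdhd rose from 1840 and 1879 to 2717 and 2439 (log2 fold change 0.47, standard error 0.15, adjusted p = 0.0294 by limma). Sdhc, at 2681 and 3416 in the controls and 3894 and 3612 under tamoxifen, did not pass (adjusted p = 0.155).

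In complex III, which hands electrons from ubiquinol to cytochrome c, only Uqcrfs1 passed. This gene for the Rieske iron-sulphur protein rose from 2148 and 2419 normalized counts to 3355 and 3191 (log2 fold change 0.52, standard error 0.15, adjusted p = 0.0196 by limma). Uqcr10, a small subunit, was at 1415 and 2018, then 2436 and 2198 (log2 fold change 0.45, adjusted p = 0.086). Uqcrq, at 1359 and 1767, then 2034 and 1671 (0.25), and Uqcr11, at 1241 and 1862, then 1650 and 1523 (0.06), overlapped between the groups. The core proteins Uqcrc1 and Uqcrc2 had log2 fold changes of 0.14 and -0.04, with overlapping groups. Uqcrb, a ubiquinone-binding subunit, was lower in both tamoxifen libraries (1732 and 1844 against 2100 and 2339) but did not pass (adjusted p = 0.119), and copies match 89.1% of its transcript. Cyc1, the cytochrome c1 gene of the same complex, which the symbol rule leaves out, had 2623 and 3173 normalized counts in the controls and 3911 and 3591 under tamoxifen (adjusted p = 0.0799).

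Complex IV, cytochrome c oxidase, passes electrons to oxygen. Its 11 general subunits, made in nearly every cell, had a median log2 fold change of 0.49, and 6 of them rose. Cox5a, which lies next to the catalytic core, had 1214 and 1403 normalized counts in the controls and 2279 and 2042 under tamoxifen (log2 fold change 0.72, standard error 0.16, adjusted p = 0.00665 by limma). Cox8a, the smallest subunit, had 1985 and 2627 in the controls and 4538 and 3791 under tamoxifen (log2 fold change 0.86, standard error 0.19, adjusted p = 0.00569 by limma). Cox7b rose by 0.83, Cox7c by 0.81, Cox5b by 0.55 and Cox6c by 0.49 on the log2 scale. The remaining general subunits were Cox4i1, the regulatory subunit that binds ATP, with a log2 fold change of 0.43 (adjusted p = 0.0793), and Cox7a2, Cox6b1, Cox6a1 and Ndufa4, with 0.23, 0.21, 0.05 and 0.02. Both tamoxifen libraries were above both controls for 8 of the 11, and for 43.1% of all genes tested.

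Several subunits of complex IV exist as isoforms that are known from muscle, testis or other restricted sites. Of the 5 tested restricted isoforms 3 rose. Cox6a2 was among them, but its fitted fold change depends on the pseudocount because the controls had no reads, and the other 4 had log2 fold changes from 0.56 for Cox6c2 to 3.44 for Cox6b2. Cox6b2, the testis isoform of a subunit on the cytochrome c side (chromosome 7 from 4754789 to 4756093 of GRCm39), had 58.9 and 62.6 normalized counts in the controls and 753 and 597 under tamoxifen (log2 fold change 3.44, standard error 0.31, adjusted p = 8.89e-05 by limma). Relative to its general partner Cox6b1, it stood at 1.61% and 1.21% in the controls and at 14.3% and 12.4% under tamoxifen. Cox7b2, another testis isoform, had no reads in the controls and 18.4 and 16.5 normalized counts under tamoxifen, which is at least 4.45-fold higher when 3 reads are allowed per control library. Of the 5 germ cell markers chosen, 3 were among the genes listed (Ddx4, Dazl and Sycp3), and Tnp1 and Prm1 were not. These 3, all higher, went from sums of 30.1 and 12.5 normalized counts to 2056 and 1351 in the same libraries. Most of the tamoxifen sums came from Dazl (1684 and 1017), and the part of germ cell RNA in these isoforms was not tested.

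The muscle isoforms were also higher in both tamoxifen libraries. Cox6a2, known from heart and skeletal muscle (chromosome 7 from 127804607 to 127805559 of GRCm39), had no reads in either control and 47.7 and 30.9 normalized counts under tamoxifen, at least 9.99-fold higher against 3 reads per control library (adjusted p = 0.000262 by limma). Itgad, whose exons cover 10.3% of the Cox6a2 transcript on the opposite strand, was also at 0 in both controls and at 92.1 and 66.1 under tamoxifen. Cox8b, the muscle partner of Cox8a, had 2.74 and 5.01, then 19.5 and 11.5 normalized counts, with too low a mean to be tested. Cox7a1 had 56.2 and 27.5 in the controls and 193 and 96.3 under tamoxifen (log2 fold change 1.77, standard error 0.56, adjusted p = 0.027 by limma), ranging from 1.27 to 2.27 when each library was left out. With quantile normalization it was 0.67 and no longer passed. Skeletal muscle markers (8 of 9 higher) went from sums of 705 and 957 to 4523 and 3525, and their part in these isoforms was not tested. Most of the control sums came from Mylpf, the marker not called (685 and 942 normalized counts, then 1389 and 990). In the controls 4 of these 9 markers were at or under 3 reads in both libraries.

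Cox4i2, the isoform of the regulatory subunit known from lung and from brain pericytes, had 141 and 329 normalized counts in the controls and 275 and 464 under tamoxifen, and the groups overlapped (log2 fold change 0.73, adjusted p = 0.196 by limma). It ordered the 4 libraries as the summed pericyte markers (2 of 8 higher) did. The sums were 34402 and 64393 in the controls and 48425 and 91861 under tamoxifen. Among the markers in this sum, Rgs5, Abcc9, Notch3 and Cspg4 did not follow that order of libraries. Per 1000 normalized counts of that sum, Cox4i2 stood at 4.10 and 5.11 in the controls and at 5.68 and 5.05 under tamoxifen. Ndufa4l2, a hypoxia-regulated relative of Ndufa4 outside the symbol rule, had 240 and 603, then 762 and 936 normalized counts (log2 fold change 1.15, adjusted p = 0.0389 by limma), and per 1000 of the pericyte sum 6.97 and 9.37, then 15.7 and 10.2. The part of pericyte RNA in both genes was not tested.

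**Figure D3:**
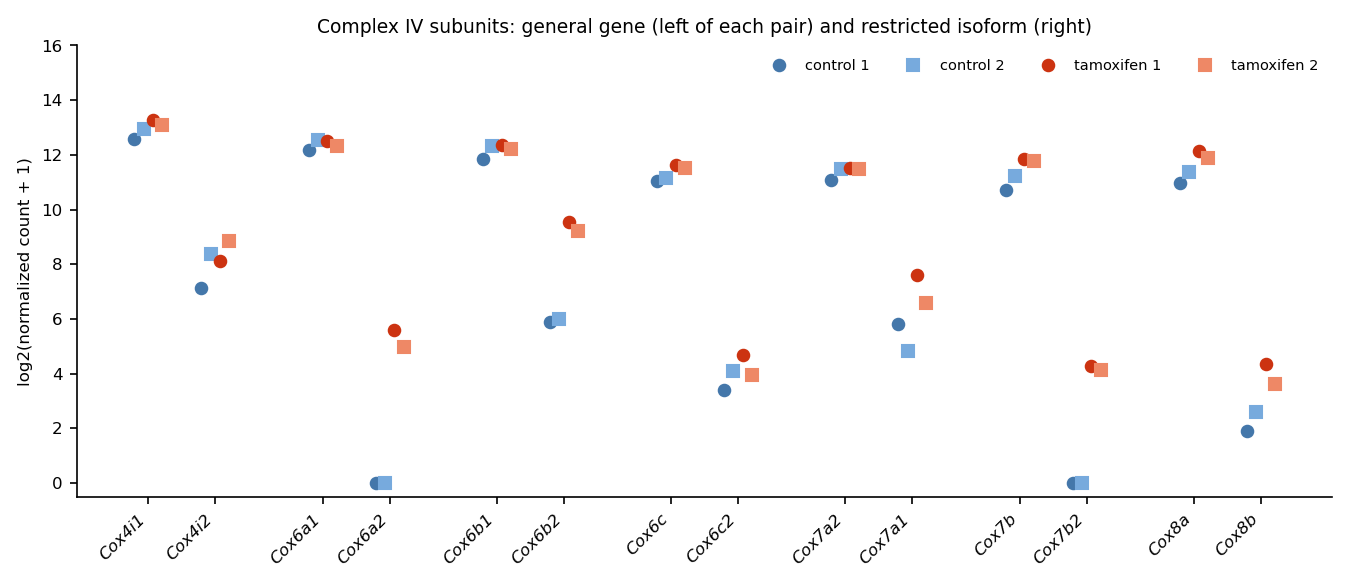
Log2(normalized count + 1) of 7 general complex IV genes and their restricted isoforms, with 1 point per library. Cox6a2 and Cox7b2 sit at 0 in both controls, Cox6b2 shows the widest gap among the isoforms read in all 4 libraries (58.9 and 62.6 against 753 and 597 normalized counts), and Cox4i2 and Cox6c2 overlap between the groups.

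Complex V makes ATP as protons turn its c ring, which drives the catalytic F1 head. Of the 5 head genes 3 rose. Atp5f1b, the catalytic beta subunit and the most abundant member per kilobase of transcript in both groups, had 21632 and 25710 normalized counts in the controls and 47749 and 41833 under tamoxifen (log2 fold change 0.92, standard error 0.23, adjusted p = 0.0109 by limma). Atp5f1a, the alpha subunit, had 14662 and 16751, then 27687 and 25916 (log2 fold change 0.77, standard error 0.20, adjusted p = 0.0114 by limma). Atp5f1c, the gamma subunit of the rotating shaft, rose by 0.57 on the log2 scale, whereas Atp5f1d and Atp5f1e of the same shaft overlapped between the groups, with 0.13 and 0.05. Set against Sdha within each library, Atp5f1b stood at 237% and 264% in the controls and at 493% and 452% under tamoxifen.

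All 3 genes for the c subunit rose, although with quantile normalization Atp5mc2 had a log2 fold change of 0.10 and no longer passed. They encode the same mature protein with different import sequences. Atp5mc3, which held the largest share of the c-subunit counts, had 3194 and 3341 normalized counts in the controls and 5499 and 5121 under tamoxifen (log2 fold change 0.70, standard error 0.15, adjusted p = 0.00472 by limma), and passed in each of the 13 alternatives run. Atp5mc1 (chromosome 11 from 95959678 to 95966757 of GRCm39) went from 496 and 663 to 1547 and 1265 (log2 fold change 1.28, standard error 0.22, adjusted p = 0.0015 by limma). Its share of the c-subunit counts was 11.9% and 14.5% in the controls and 19.7% and 17.6% under tamoxifen. Atp5mc2 rose by 0.59 on the log2 scale. Copies elsewhere in the genome match 85.8% of the Atp5mc1 transcript and 89.2% of that of Atp5mc2, and none was found for Atp5mc3.

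The highest fold in complex V was that of Atp5if1, the inhibitor that blocks ATP hydrolysis by the synthase when the gradient collapses. It had 608 and 932 normalized counts in the controls and 2234 and 2369 under tamoxifen (log2 fold change 1.61, standard error 0.22, adjusted p = 0.000585 by limma). Its position in GRCm39 is chromosome 4, 132257215 to 132262823, and exons of Gm12999 on the opposite strand cover 59.6% of its transcript. Relative to Atp5f1b, which it binds, it stood at 2.81% and 3.63% in the controls and at 4.68% and 5.66% under tamoxifen, so the inhibitor gene was higher by more than the head gene in both tamoxifen libraries.

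The stalk and the membrane part of complex V were mixed. In the peripheral stalk Atp5pb rose by 0.61 and Atp5pf fell by 0.62 on the log2 scale. Atp5pf had 4897 and 5620 normalized counts in the controls and 3457 and 3369 under tamoxifen (adjusted p = 0.00983 by limma). Atp5pd, of the same stalk, had a log2 fold change of -0.09, with overlapping groups. Exons of Jam2 and Gabpa on the opposite strand together cover 46.4% of the Atp5pf transcript. Jam2, an endothelial junction gene, fell by 1.77 on the log2 scale, and Gabpa had 0.06 and did not pass. Of the 5 membrane accessory genes, Atp5mj and Atp5mk rose by 0.56 and 0.53, and Atp5mg, which helps to form dimers of the synthase, fell from 352 and 267 to 141 and 175 (log2 fold change -0.96, standard error 0.31, adjusted p = 0.0306 by limma). The Atp5mg transcript has 11 near-identical copies that together match 85.8% of it. With the libraries rescaled to equal totals, Ndufb8, Atp5mg and Atp5pf no longer passed, with log2 fold changes of -0.38, -0.49 and -0.15. With quantile normalization Atp5pf and Atp5mk no longer passed, with -0.32 and 0.36.

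Subunit genes are short, and many have processed copies or neighbours whose exons overlap theirs. Exons of another gene covered over 10% of the transcript on the same strand for 1 member and on the opposite strand for 38. Among the 52 members with at most 10% of the transcript in a near-identical copy, the medians were -0.02 for complex I, 0.57 for complex IV and 0.70 for complex V. When members with more than 10% of the transcript under exons of another gene on either strand were also left out, 27 members remained. The medians were then -0.03 for the 11 in complex I, 0.22 for the 6 tested in complex IV and 0.13 for the 3 in complex V, Atp5f1a, Atp5f1d and Atp5f1e. Across the 82 members, the log2 fold change had a Pearson's r of -0.09 with log2 transcript length and 0.02 with GC content.

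**Figure D4:**
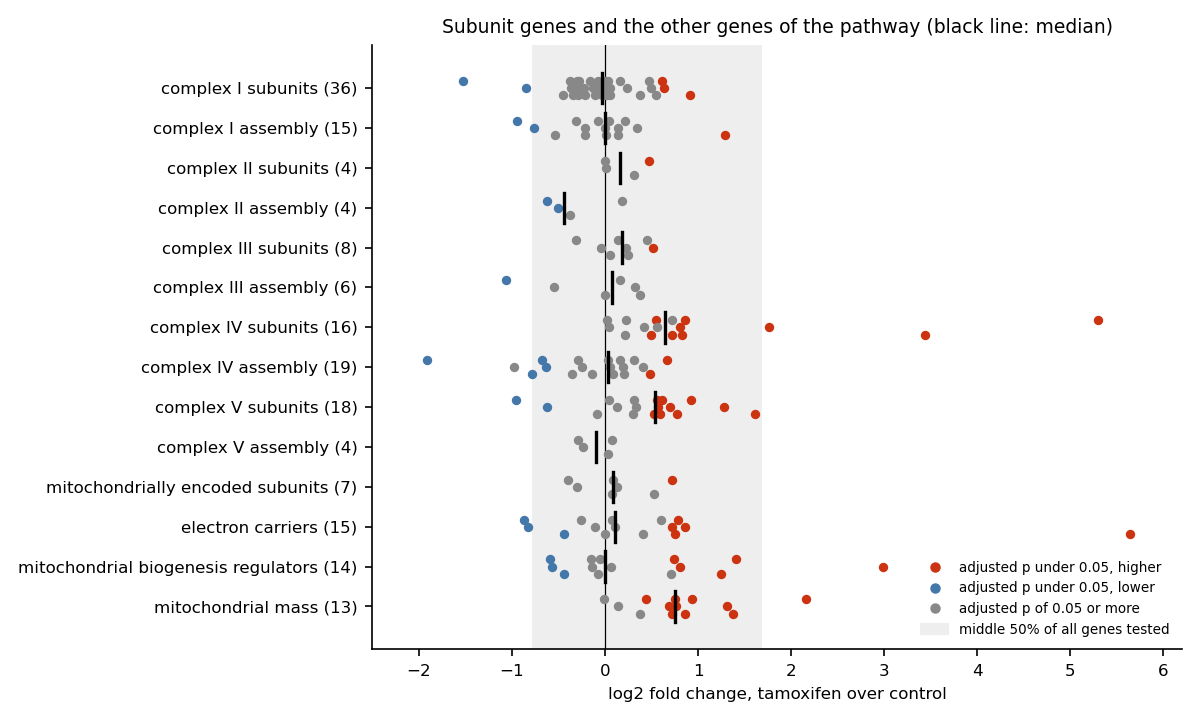
Log2 fold change (tamoxifen over control, x axis) of each tested gene of the subunit groups and of the other lists of the pathway, with the number of genes in brackets and the median as a black line. The medians of complex IV and V subunits (0.64 and 0.54) lie to the right of those of their assembly factors (0.03 and -0.10), and that of the mitochondrial mass genes is 0.76.

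Of the 13 subunit genes of mitochondrial DNA, 9 were among the genes listed and 7 were tested. Of these 7, 1 rose, and their median log2 fold change was 0.09. This was mt-Nd6, the complex I gene on the other strand of the mitochondrial genome, with 16093 and 15909 normalized counts in the controls and 31852 and 21791 under tamoxifen (log2 fold change 0.72, adjusted p = 0.0314 by limma). The catalytic subunit gene mt-Co1 had 183988 and 179240 in the controls and 249418 and 146237 under tamoxifen, so that the tamoxifen libraries lay on either side of the controls. The lowest was mt-Nd2, with a log2 fold change of -0.39. No more than 5.48 normalized counts were found for mt-Co2 and mt-Co3 in any library, and they did not enter the fit. Both lay far below mt-Co1 of the same complex, and the cause was not tested.

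The assembly factors, which build the complexes without staying in them, had medians of 0.00 for complex I, -0.44 for complex II, 0.08 for complex III, 0.03 for complex IV and -0.10 for complex V. Of the 19 complex IV factors 2 rose and 4 fell, both below the shares of all genes tested (33.4% and 25.5%). Cox20, a chaperone of the copper-bearing subunit, fell by 1.91, from 24.7 and 66.3 normalized counts to 10.8 and 9.35, and Surf1, whose loss causes Leigh syndrome in humans, fell by 0.63 on the log2 scale. Cmc2 was highest, at 0.67. Of the 15 complex I factors, Ndufaf6 rose by 1.29, and Ndufaf7 and Tmem126b fell by 0.95 and 0.76. Sdhaf1 and Sdhaf2 of complex II fell by 0.62 and 0.51, and Sdhaf3 was highest there, at 0.19. In complex III, Uqcc3 fell by 1.06, and Lyrm7 was highest, at 0.37. The 4 complex V factors lay between -0.29 for Atpaf1 and 0.08 for Atpaf2, and none passed.

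Among the genes of the mobile electron carriers, 5 of 15 rose and 3 fell, near the 33.4% and 25.5% of all genes tested. Cycs, the somatic cytochrome c, had 852 and 1059 normalized counts in the controls and 1517 and 1612 under tamoxifen (log2 fold change 0.72, adjusted p = 0.0101 by limma). Cyct, the testis cytochrome c, had no reads in the controls and 55.3 and 43.1 normalized counts under tamoxifen, at least 12.5-fold higher against 3 reads per control library. The lowest was Coq2, an enzyme of ubiquinone synthesis, which fell by 0.87 on the log2 scale. Cox7a2l, a factor of respiratory supercomplexes, had a log2 fold change of -0.32 and did not pass (adjusted p = 0.168).

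Of the 14 regulators of mitochondrial biogenesis, 5 rose and 3 fell, again near the shares of all genes tested (33.4% and 25.5%). Ppargc1a, the coactivator that induces respiratory genes in many tissues, went from 112 and 92.6 normalized counts to 591 and 1132 (log2 fold change 2.99, standard error 0.36, adjusted p = 0.000285 by limma). Tfam, which packs and transcribes mitochondrial DNA, rose by 0.74 on the log2 scale. Of the transcription factors that bind promoters of respiratory genes, Nrf1, Gabpa and Esrra had log2 fold changes of -0.05, 0.06 and -0.07 and did not pass, while Gabpb1, the lowest of the list, fell by 0.59 and Yy1 by 0.57, from 7432 and 6961 normalized counts to 5318 and 4431 (adjusted p = 0.0194 by limma). Genes used as measures of mitochondrial mass rose in 10 of 13 cases, with a median of 0.76, where 33.4% of all genes tested rose. Hspd1, the matrix chaperonin, was highest, with 3350 and 2736 normalized counts in the controls and 14620 and 12509 under tamoxifen, and Vdac3 was lowest, with a log2 fold change of -0.01.

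Promoter sequence was available from RefSeq (GRCm38.p6) for 67 of the 84 members. Windows from 250 bases upstream to 50 bases downstream of the start were searched on both strands for the NRF1 motif, for the letters CCGGAAG, bound by ETS factors such as GABP, and AAGATGG, bound by YY1. The NRF1 letters were found in 25% of the 72 member windows and 4.60% of the 32851 windows of all genes, the ETS letters in 22.2% and 8.86%, and the YY1 letters in 15.3% and 6.34%. By complex, NRF1 letters were present for 7 of 32 genes in complex I, 2 of 3 in complex II, 1 of 5 in complex III, 1 of 13 in complex IV and 6 of 14 in complex V. The median log2 fold change was 0.05 for the 17 members with NRF1 letters and 0.06 for the 48 tested members without them. For the ETS letters it was 0.05 for the 16 with and 0.05 for the 49 without. For the YY1 letters it was 0.05 for the 11 with and 0.05 for the 54 without.

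The 250 upstream bases of 4 members are shown because they pair a promoter type with a different change. Ndufs5, the member that fell most, carries the NRF1 letters once, and Sdha, with a log2 fold change of 0.01, carries them in 3 places. Cox6b1 and Cox6b2 are the general and the testis gene for the same subunit, and of the searched letters the first has an ETS match and the second has none. Capitals mark the matches, and each sequence runs 5′ to 3′ on the minus strand of GRCm38.p6 (chr4:123718187-123718436, chr13:74350241-74350490, chr7:30626115-30626364 and chr7:4753095-4753344, in the order given).
Ndufs5: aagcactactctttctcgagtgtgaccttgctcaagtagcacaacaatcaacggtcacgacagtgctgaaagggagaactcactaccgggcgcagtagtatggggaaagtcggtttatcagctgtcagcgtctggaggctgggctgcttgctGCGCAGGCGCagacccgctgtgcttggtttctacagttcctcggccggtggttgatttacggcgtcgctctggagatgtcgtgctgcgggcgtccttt
Sdha: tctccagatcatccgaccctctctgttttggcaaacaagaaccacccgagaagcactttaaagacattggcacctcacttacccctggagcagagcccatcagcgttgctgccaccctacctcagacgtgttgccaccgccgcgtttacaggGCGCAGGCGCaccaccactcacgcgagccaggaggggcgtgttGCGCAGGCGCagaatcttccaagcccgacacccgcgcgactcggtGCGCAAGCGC
Cox6b1: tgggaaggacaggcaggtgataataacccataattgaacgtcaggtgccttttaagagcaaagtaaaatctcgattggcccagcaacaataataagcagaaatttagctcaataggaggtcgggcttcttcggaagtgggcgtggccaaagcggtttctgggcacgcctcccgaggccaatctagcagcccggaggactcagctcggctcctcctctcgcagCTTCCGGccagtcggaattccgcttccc
Cox6b2: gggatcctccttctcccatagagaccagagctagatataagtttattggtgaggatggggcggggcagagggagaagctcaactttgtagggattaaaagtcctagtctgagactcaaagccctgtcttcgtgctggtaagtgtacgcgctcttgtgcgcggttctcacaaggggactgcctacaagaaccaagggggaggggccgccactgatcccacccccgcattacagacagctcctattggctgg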

How the data were processed

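RNA from 2 control and 2 tamoxifen libraries was analysed as a table of 24873 genes. Reads from a stranded mRNA kit were aligned to GRCm39 by the authors (STAR 2.7.10a), who dropped low-count genes and used DESeq2 1.36.0 for normalization. The annotation, the strand setting, the treatment of reads with several matches and the low-count limit are not given in the sources used here. Each deposited value is a normalized signal, the count of a gene divided by a library's size factor. Dividing by the value of 1 read gave whole reads (within 0.01) for 100% of values. Columns are named by a letter and a number. The letter C was taken to mean control, and the letter A to mean AVM, the malformation seen after tamoxifen, which is an inference because no label has an A.

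Genes whose mean reached 10 normalized counts entered limma 3.58.1 in R 4.3.3 (lmFit, eBayes with a trend) on log2(normalized count + 1), with Benjamini-Hochberg (BH) adjustment over 20485 genes. Fold changes on this scale understate changes of low genes. The study's cut-offs were an adjusted p of 0.05 and a log2 fold change of 1. Locations, lengths and exon overlaps came from GENCODE M39 (canonical transcripts), and copies from blastn 2.17.0 (identity of at least 95% over at least 100 bases). The limit of 3 reads covers counting error only, whereas the standard errors come from limma and reflect the spread between libraries. Members and lists were chosen with earlier results of these data known. Members named are the 3 lowest and 3 highest of each complex, those past both cut-offs, isoforms with their partners, and redox and catalytic subunits, of which 1 is not reported here. Other genes named are each list's lowest and highest and a fixed set of regulators and relatives. Further genes (overlapping neighbours, Surf1, Yy1 and other members past the threshold) were named after their values were seen. Alternatives were other pseudocounts (0.5 and 5), no filter or a mean of 100, equal totals, quantile normalization, a replicate block, count models on the recovered reads (DESeq2 1.42.0, edgeR 4.0.16), Ndufa4 in complex I, and each library left out. The limma procedure was tested on simulated data in which few genes changed, in equal numbers up and down. That setting differs from these data, where many genes changed.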

Additional observations from a re-analysis of the deposited data

How the results depend on the processing

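Relative to the median of all genes tested, the medians of complexes IV and V stayed above 0 in every alternative run (0.41 to 0.91 and 0.34 to 0.69), and each exceeded the median of complex I (by 0.57 to 0.80 and by 0.48 to 0.67). The alternatives do not cover the 27 members with little sequence copied or under exons of another gene on either strand. Over these the medians were lower, 0.22 for complex IV (6 genes tested) and 0.13 for complex V (3 genes), with -0.03 for complex I. The relative median of complex I ran from -0.33 to 0.15. Rescaling to equal totals shifted the median of all genes by 0.49, and 80.3% of all calls were then higher, against 64.1%; quantile normalization shifted it by -0.28, with 45.6% higher. With equal totals the medians were 0.69 over all members, 0.44, 0.63, 0.65, 1.19 and 1.01 for complexes I to V; 23 members were called higher by both cut-offs, and 55 were higher and 1 lower by the adjusted p alone. Ndufs4 and Uqcrc2 then changed sign to 0.44 and 0.43 and passed, and 20 further members changed sign without a call before or after. Quantile normalization gave medians of 0.54 for complex II and 0.38 for complex III, 8 members called higher and 5 lower by both cut-offs. The filter at a mean of 100 left 3 called higher. edgeR and DESeq2 changed no member's call. In these cases the cause was not tested.

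Leaving out a library in turn gave 2 to 11 members called higher and 0 to 2 lower by both cut-offs, and 3 to 26 higher and 0 to 4 lower by the adjusted p alone, where fewer libraries also leave fewer degrees of freedom. The medians ranged from 0.00631 to 0.40 over all members, from -0.24 to 0.13 in complex I, from -0.000974 to 0.40 in complex III and from 0.50 to 0.93 in complex IV. Cox6b2 and Atp5mc3 passed in all 13 alternatives. The replicate numbers are only shared names (correlation of same-numbered deviations 0.03 over 2 pairs). With the replicate number as a block, 28 members were higher and 5 lower by the adjusted p alone, and the calls by both cut-offs stayed at 5 and 1.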
